A study of Homo sapiens with 2 samples.

Results

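CPA4 is a zinc carboxypeptidase of the M14 family, and it is described here together with 5 related genes: the carboxypeptidases CPD, CPE and CPM, the tubulin-directed carboxypeptidase AGBL5, and LXN, which encodes the carboxypeptidase inhibitor latexin. All isoforms carrying one of these 6 gene symbols in the deposited table were taken, 12 of 63236 isoforms and 6 of 26260 symbols. The genes were chosen with the difference between the libraries already known, CPA4 because it stood far apart, so that difference is given as a description and supports no test. RNA came from HCT-116, an established human colorectal carcinoma line grown in medium with fetal bovine serum. The LPA group is 1 library of serum-starved cells given lysophosphatidic acid (LPA), a lipid that signals through G protein-coupled receptors, at 10 µM for 24 h. The control group is 1 library of untreated cells, and whether these were also starved is not given here. With 1 library per group there is no replicate error, no difference has a replicate check, and no p-value can be given.

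Metallocarboxypeptidases remove single amino acids from the carboxyl end of peptides and proteins by means of a bound zinc ion. A-type enzymes such as CPA4 are secreted as inactive precursors and prefer hydrophobic end residues, whereas CPD, CPE and CPM remove the basic residues left by proprotein convertases or exposed at the cell surface. Cytosolic carboxypeptidases such as AGBL5 act on the glutamate chains of tubulin tails. In the colon, prohormone processing of the CPE kind is known best from enteroendocrine cells.

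The sequence just upstream of CPA4 and the exon that separates its isoforms are shown first, because the CPA4 gene carries the largest difference among these genes and because nearly all of its signal lay on the isoform that holds this exon. The upstream window runs over the 250 bases before the RefSeq start (GRCh38.p14, chr7:130292911-130293160, plus strand). That start lies 27 nt after the start of both CPA4 isoforms in the deposited table and in GENCODE, so the last 27 bases shown fall within the first exon of the isoforms measured here. Capitals mark matches to the AP-1 type motif TGANTCA and to the TATA box TATAAA on either strand. The exon is the fourth of 11 exons (GENCODE release 29 on GRCh38, chr7:130300816-130300914, plus strand), lies wholly in coding sequence and is written in lower case throughout.
CPA4 upstream: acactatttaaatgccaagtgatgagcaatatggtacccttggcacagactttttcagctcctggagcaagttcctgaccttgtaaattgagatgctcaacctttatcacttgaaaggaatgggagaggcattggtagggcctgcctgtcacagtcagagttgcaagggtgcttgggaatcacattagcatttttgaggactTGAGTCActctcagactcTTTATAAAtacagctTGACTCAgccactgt
CPA4 exon: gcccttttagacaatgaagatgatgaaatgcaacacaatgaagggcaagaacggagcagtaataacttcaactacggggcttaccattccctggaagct

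CPA4 had 12.5 FPKM in the LPA library, against 1.25 FPKM in the control library. FPKM are estimated fragments scaled by transcript length and library size, here summed over the isoforms of a gene. The plain ratio was 10.0-fold. Converted with the estimated worth of 1 fragment, these levels rested on about 557 fragments with LPA and 59 in the control, and the exact (Clopper-Pearson) 95% interval of the ratio from those numbers was 7.65-fold to 13.3-fold, which covers counting error only. On the log2 scale with 1 FPKM added to both values, which understates differences of weakly expressed genes, the ratio was 2.59. Of the 11688 genes with a mean of at least 1 FPKM over both libraries, called measured below, 99.9% had a lower log2 ratio. The ratio was 3.23 with 0.1 FPKM added and 1.49 with 5 FPKM added. In a bulk library a larger share of cells with CPA4 RNA and more CPA4 RNA per cell cannot be told apart.

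Almost all of the CPA4 signal came from 1 of 2 isoforms. NM_016352, of 2817 nt, had 12.5 FPKM in the LPA library (deposited bounds 8.91 to 16.0) and 1.25 FPKM in the control library (bounds 0.697 to 1.79). The bounds come from the authors' software, their level is not stated, and they hold no replicate error. The intervals did not overlap. NM_001163446, of 2718 nt, lacks the 99-nt exon printed above, which is 33 codons long and keeps the reading frame, so that the coding length is 1164 nt in place of 1263 nt. It was at 0.0402 FPKM in the LPA library and 1.96e-05 FPKM in the control library, with overlapping bounds and about 2 fragments with LPA and 0 in the control. The exon-containing isoform thus held 99.7% of CPA4 FPKM in the LPA library and 99.998% in the control library. No other annotated gene overlapped the CPA4 exons in GENCODE.

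The deposited loci place the 6 genes on separate chromosomes of hg38. CPA4 lies on chromosome 7 (130293134 to 130324180), CPE on chromosome 4 (165378945 to 165498330) and CPD on chromosome 17 (30378924 to 30469657). CPM lies on chromosome 12 (68851176 to 68963240), AGBL5 on chromosome 2 (27051623 to 27071699, a locus that also holds OST4) and LXN on chromosome 3 (158644528 to 158692571, a locus that also holds GFM1).

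**Figure D1:**
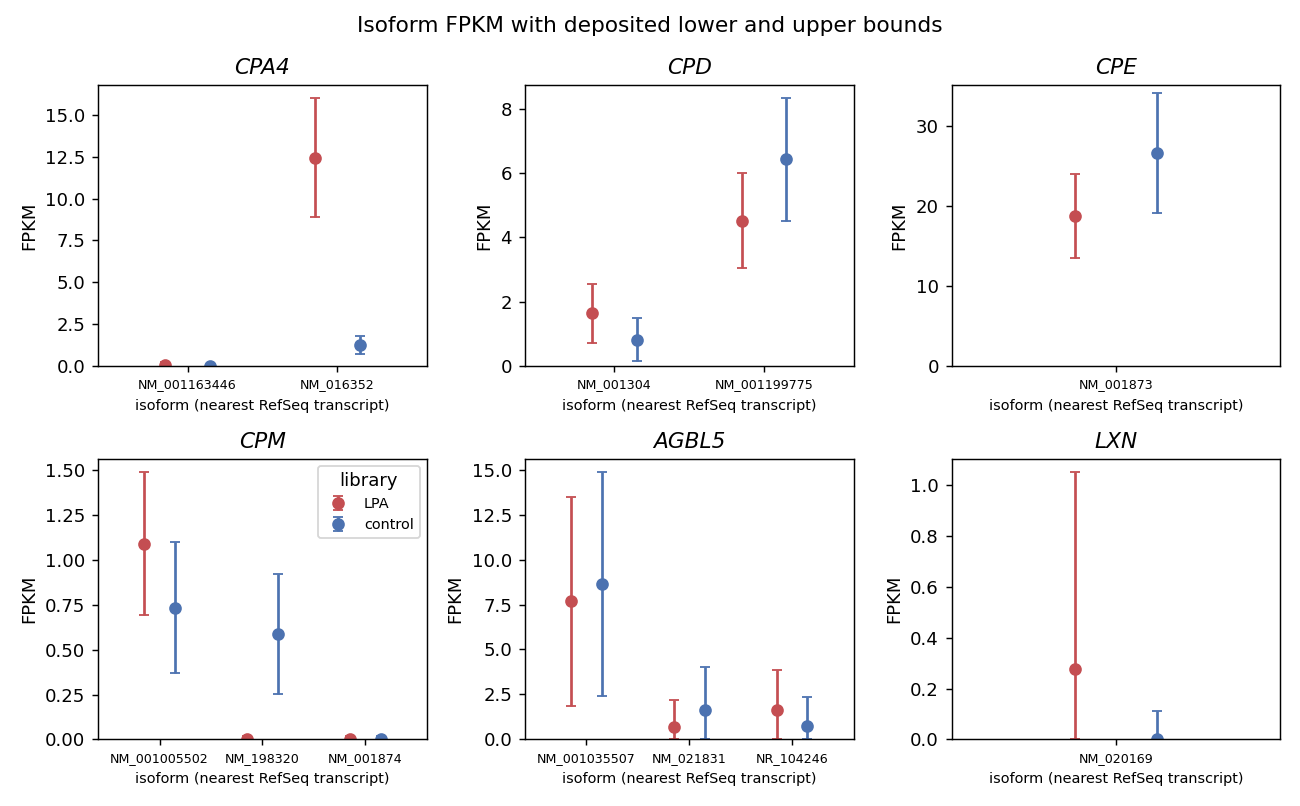
FPKM of each isoform of the 6 genes in the LPA library (red) and the control library (blue); bars run from the deposited lower to the upper bound, and each panel has its own linear axis from 0. The bars are separate for CPA4 NM_016352 and CPM NM_198320 and overlap for the other 10 isoforms.

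Among the regulatory carboxypeptidases, which act on basic end residues, all 3 genes were lower in the LPA library, as were 49.8% of all measured genes, and none was 2-fold lower, where 0.205% of all measured genes were. For CPM the counting interval held 0 and the sign turned with another choice of isoform, as given below. CPE, which trims prohormones and neuropeptides in secretory granules, had 18.7 FPKM in the LPA library, against 26.6 FPKM in the control library, on its only isoform of 2428 nt. The control level was 1.42-fold the LPA level and the log2 ratio was -0.49; 3.05% of measured genes had a lower one. The deposited bounds, 13.4 to 24.0 FPKM with LPA and 19.1 to 34.1 FPKM in the control, overlapped. From about 718 fragments with LPA and 1085 in the control the interval of the plain log2 ratio was -0.65 to -0.37, counting error only. Defining genes of neuroendocrine cells were low: CHGA and INSM1 were listed at 0 in both libraries, CHGB was at 0.0584 FPKM with LPA and 0 in the control, and SYP had 0.751 FPKM with LPA and 1.17 FPKM in the control. These 4 markers summed to 0.810 FPKM in the LPA library and 1.17 FPKM in the control library, and their part in the CPE difference was not tested.

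CPD, a membrane-bound enzyme of the trans-Golgi network with repeated carboxypeptidase domains, had 6.15 FPKM in the LPA library and 7.24 FPKM in the control library (log2 ratio -0.21). From about 834 fragments with LPA and 1030 in the control the interval of the plain log2 ratio was -0.35 to -0.09, counting error only. Its 2 isoforms start at different first exons, and one was higher and the other lower with LPA. NM_001304, which starts at the upstream exon, had 1.63 FPKM with LPA (bounds 0.717 to 2.55) and 0.812 FPKM in the control (bounds 0.139 to 1.48). NM_001199775, which starts downstream, had 4.51 FPKM with LPA (bounds 3.03 to 5.997) and 6.43 FPKM in the control (bounds 4.52 to 8.35). The bounds overlapped for both isoforms.

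In share of CPD FPKM, the upstream form thus made up 26.6% in the LPA library and 11.2% in the control library. In GENCODE the 2 starts lie 1331 nt apart on chromosome 17. The upstream first exon holds 746 coding nt and the downstream one 5, and the coding lengths are 4140 and 3399 nt. The deposited isoform lengths, 9043 and 8405 nt, differ from those in GENCODE, 9394 and 4007 nt, and how the annotation bears on the split of fragments was not tested. The leading isoform alone had a log2 ratio of -0.43.

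CPM, a carboxypeptidase anchored to the outer cell surface, was weakly expressed, at 1.09 FPKM in the LPA library and 1.32 FPKM in the control library (log2 ratio -0.15). The fragments behind these values numbered about 115 with LPA and 148 in the control, and the counting interval of the plain log2 ratio, -0.64 to 0.08, held 0. NM_001005502 had 1.09 FPKM with LPA and 0.735 FPKM in the control, with overlapping bounds. NM_198320 had 0.000501 FPKM with LPA (bounds 0 to 0.0193) and 0.588 FPKM in the control (bounds 0.253 to 0.924), which do not overlap. It made up 0.0459% of CPM FPKM in the LPA library and 44.5% in the control library. The 2 isoforms have lengths of 6636 and 6654 nt, share a start in the deposited table and match the same GENCODE transcript, with a coding length of 1329 nt, and how well fragments tell them apart was not tested. With the leading isoform standing for the gene the log2 ratio of CPM was 0.27, the opposite sign. The third isoform, NM_001874, had 0.000122 FPKM with LPA and 0.000338 FPKM in the control.

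AGBL5, also called CCP5, removes the glutamate at the branch points of tubulin polyglutamate chains. It had 9.99 FPKM in the LPA library and 11.1 FPKM in the control library (log2 ratio -0.13). The counting interval of the plain log2 ratio, -0.33 to 0.05, held 0. NM_001035507, the shortest of its 3 isoforms, held most of the signal in both libraries, 76.9% with LPA and 78.3% in the control. NM_021831 had 0.685 FPKM with LPA and 1.63 FPKM in the control, while the transcript NR_104246 had 1.62 FPKM with LPA and 0.773 FPKM in the control, and all bounds overlapped. These 2 longer isoforms overlap by 149 and 151 nt in GENCODE with OST4, a small subunit of the oligosaccharyltransferase on the opposite strand, which had 369 FPKM in the LPA library and 375 FPKM in the control library. The library kit does not mark strand, so fragments from the overlap cannot be assigned to either gene and the values of the 2 longer isoforms are uncertain. All 3 isoforms also overlap by 164 nt with an antisense gene.

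LXN, the inhibitor of A-type carboxypeptidases, was near or below detection. It was at 0.275 FPKM in the LPA library (bounds 0 to 1.05), about 5 fragments, and was listed at 0 in the control library (upper bound 0.113). No fold is given against a library listed at 0. The gene lies in a locus with GFM1, a mitochondrial elongation factor gene on the other strand that had 8.71 FPKM with LPA and 8.46 FPKM in the control. In GENCODE no exon of another gene overlaps those of the LXN transcript. Its mean was below 1 FPKM, so LXN does not enter the counts below.

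In the LPA library CPE ranked highest, followed by CPA4, AGBL5, CPD, CPM and LXN, on the FPKM scale, which is per length. In the control library the order was CPE, AGBL5, CPD, CPM, CPA4 and LXN, so CPA4 stood second in one library and second from the bottom in the other. The bounds of the leading isoforms of CPE and CPA4 overlapped in the LPA library, as did those of CPA4 and AGBL5. In the control library the bounds of CPE lay above those of AGBL5 (2.44 to 14.9 FPKM), and those of CPM (0.371 to 1.10 FPKM) overlapped those of CPA4.

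**Figure D2:**
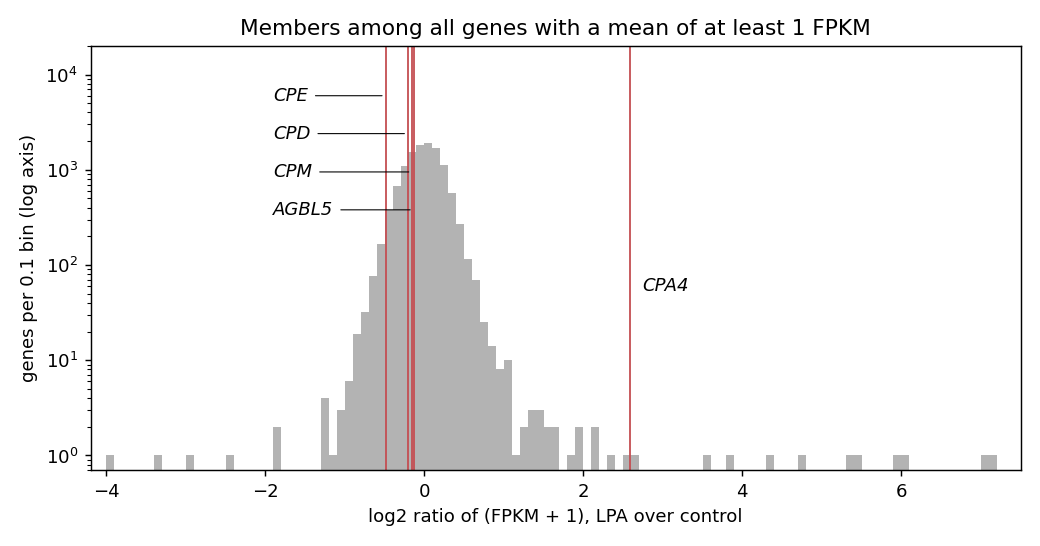
Histogram of the log2 ratio, LPA over control, of the 11688 measured genes, with a log count axis; red lines mark the 5 measured carboxypeptidase genes. CPA4 lies at 2.59, and CPE, CPD, CPM and AGBL5 lie between -0.49 and -0.13, inside the central 95% of all genes.

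Of the 5 measured genes, 1 was at least 2-fold higher (a log2 ratio of 1 or more), where 0.351% of all measured genes were, and none was at least 2-fold lower, where 0.205% were. The 4 others were below 0, as were 49.8% of all measured genes, while 50.2% were above 0. Their median was -0.15 with CPA4 and -0.18 without it, beside 0.00 over all measured genes, whose central 95% ran from -0.51 to 0.49. Among the isoforms with a mean of at least 1 FPKM and status OK, CPA4 NM_016352 was the only one of the 6 genes with separate bounds, and of all such isoforms 2.48% had separate bounds and were higher and 2.12% had them and were lower. With any isoform above 0 FPKM included, CPM NM_198320 joined it on the lower side, where 2.85% of all isoforms stood, beside 2.89% on the higher side. Since genes were chosen on this contrast, nothing is read from these counts.

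The 13 other genes examined for the secreted and membrane-bound M14 branches were hardly detected. They include inactive relatives and CPN2, a noncatalytic subunit. None reached a mean of 1 FPKM, 8 were listed at 0 in both libraries, and they summed to 0.473 FPKM with LPA and 0.786 FPKM in the control. CPO, an intestinal brush border enzyme, had the highest level of them, 0.268 FPKM with LPA and 0.459 FPKM in the control. CPA3, the mast cell carboxypeptidase, was listed at 0 in both libraries, as were the mast cell markers TPSAB1, KIT and MS4A2. A listed 0 need not mean absence.

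Close relatives of CPA4 lie near it on chromosome 7. CPA5 and CPA1, which encode carboxypeptidases of testis and pancreas and start 51.7 and 87.2 kb after CPA4, were listed at 0 in both. Of the 9 neighbours examined 5 were measured, 2 above and 3 below 0, with a median log2 ratio of -0.07 and none 2-fold apart. CEP41, a centrosomal protein gene next to CPA1, had 1.24 FPKM with LPA and 1.56 FPKM in the control. Its isoform NM_001257158 was listed at 0 with LPA (upper bound 0.01996) and at 0.409 FPKM in the control (bounds 0.110 to 0.708). These bounds do not overlap, while those of all other isoforms of the 9 neighbours do. Of all isoforms above 0 FPKM with status OK, 2.85% had separate bounds and were lower. How well fragments tell the CEP41 isoforms apart was not tested. MEST, an imprinted gene, had 13.5 FPKM with LPA and 14.1 FPKM in the control, and COPG2, a coat protein gene in the same locus as MEST, had 9.15 FPKM with LPA and 10.1 FPKM in the control, so fragments of their overlap are hard to assign.

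On the other side of CPA4, TMEM209 had 4.06 FPKM with LPA and 3.31 FPKM in the control, and ZC3HC1, which encodes a nuclear pore-associated protein, had 13.1 FPKM with LPA and 11.8 FPKM in the control. SSMEM1 was listed at 0 with LPA and at 0.0543 FPKM in the control, and the imprinted transcription factor gene KLF14, which lies beyond MEST, was at 0.595 FPKM with LPA and 0.387 FPKM in the control, both below the measured level. Within this stretch CPA4 was the only one of these 10 genes with a log2 ratio above 0.24. That limit holds with 1 FPKM added to both values, which shrinks the ratios of weakly expressed genes such as KLF14 and TMEM209.

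**Figure D3:**
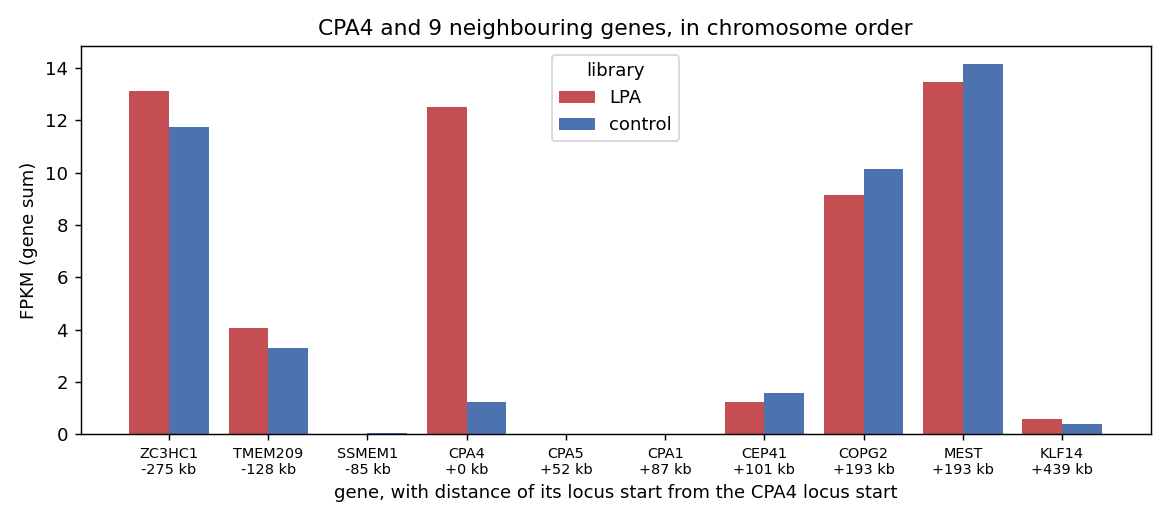
FPKM per gene in the LPA library (red) and the control library (blue) for CPA4 and 9 neighbouring genes in chromosome order, with the distance of each locus start from that of CPA4. CPA4 stands at 12.5 FPKM with LPA and 1.25 FPKM in the control, while the 5 measured neighbours have closely similar bars in both libraries.

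All 6 genes matched entries of the RefSeq promoter table, with 9 entries in all. Motifs were counted on both strands in the 250 bases before each RefSeq start, which can differ from the GENCODE start. CPA4 held 2 matches to TGANTCA, at positions -48 to -42 and -15 to -9 from the RefSeq start. Counted from the deposited start, whose first base is 1, the first of them lies at -21 to -15 and the second at 13 to 19, inside the first exon. Among the 35116 upstream windows of RefSeq, 6.57% held at least 1 such match and 0.402% held 2 or more. The only other match among the 6 genes was 1 in the window before the downstream RefSeq start of CPD. That window begins at 30380228 on chromosome 17, while the GENCODE first exon runs from 30380236 to 30380642. Nearly all of it thus lies within that exon and not upstream of it. CPA4 also held TATAAA at -28 to -23 from the RefSeq start, overlapping a reverse-strand match at -30 to -25, and this stretch spans the deposited start. Of all windows 10.7% held TATAAA, and LXN held 1. CPA4 held no GC box GGGCGG, which 42.6% of windows held, and neither did the windows of CPE, of the downstream CPD start and of 1 CPM start, while the window before the upstream CPD start held 3. It held 1 match to GGAATG, which 11.9% of windows held, and none to TGATGNAA, to the E-box CACGTG or to the CArG box. GC content was 44.4% for CPA4, close to 45.2% for the downstream CPD start and 47.6% for 1 CPM start. The entry of that CPM start (68932573 to 68932872, minus strand) lies after the GENCODE start of NM_001005502 at 68933199. GC content ran up to 81.6% for another CPM start over the 9 windows, beside a median of 58.0% over all windows. A match is a stretch of letters and says nothing about binding.

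The measured tubulin tail enzymes, which stand beside AGBL5, went both ways. Of 11 examined genes 8 were measured, 3 above and 5 below 0, with a median of -0.16 and none 2-fold apart. TTL, the tubulin tyrosine ligase gene, had 11.2 FPKM with LPA and 8.37 FPKM in the control, and TTLL4, a glutamylase gene, had 5.65 FPKM with LPA and 3.86 FPKM in the control, while TTLL5, another glutamylase gene, had 4.38 FPKM with LPA and 3.73 FPKM in the control. The glutamylase genes TTLL7 (1.47 FPKM with LPA and 2.02 FPKM in the control) and TTLL1 (1.997 FPKM with LPA and 2.33 FPKM in the control) were lower. So were the detyrosinase genes VASH1 (2.73 FPKM with LPA and 3.50 FPKM in the control) and VASH2 (0.951 FPKM with LPA and 1.20 FPKM in the control), and SVBP, the partner of both (16.2 FPKM with LPA and 18.5 FPKM in the control). AGTPBP1, the only measured gene of the 5 other cytosolic carboxypeptidases, had 2.995 FPKM with LPA and 2.93 FPKM in the control.

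The list of peptide processing genes set beside CPD and CPE had 6 of 11 examined members measured, 2 above and 4 below 0, with a median of -0.07. Not all of them need act on the same peptides as CPD and CPE. The convertase gene FURIN had 25.8 FPKM with LPA and 26.9 FPKM in the control, and PAM, which amidates peptides after carboxypeptidase trimming, had 52.3 FPKM with LPA and 50.9 FPKM in the control. The convertase genes PCSK7 (3.69 FPKM with LPA and 3.66 FPKM in the control) and MBTPS1 (28.97 FPKM with LPA and 30.8 FPKM in the control) differed as little. PCSK6 (1.91 FPKM with LPA and 2.43 FPKM in the control) and PCSK4 (0.862 FPKM with LPA and 1.69 FPKM in the control) were lower, the last with a log2 ratio of -0.53. PCSK1, the granule convertase paired with CPE in endocrine cells, was listed at 0 in both libraries.

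Carboxypeptidases of other families had 6 of 11 members measured, 4 above and 2 below 0, with a median of 0.09. CNDP2, a cytosolic dipeptidase gene, had 10.4 FPKM with LPA and 7.25 FPKM in the control. Genes of lysosomal enzymes include CTSA, CTSZ and PRCP, and CTSA, PRCP, SCPEP1 and CPVL are of the serine type. CTSA had 48.7 FPKM with LPA and 40.9 FPKM in the control, and CTSZ had 77.6 FPKM with LPA and 71.7 FPKM in the control. PRCP had 41.6 FPKM with LPA and 45.9 FPKM in the control. SCPEP1 had 17.0 FPKM with LPA and 16.3 FPKM in the control, and CPVL had 7.85 FPKM with LPA and 9.41 FPKM in the control. The log2 ratios of CTSA, CTSZ, PRCP, SCPEP1 and CPVL ran from -0.23 to 0.24. Of the 2 listed inhibitors, the latexin relative RARRES1 was at 0.09997 FPKM with LPA and listed at 0 in the control, and CST6, which inhibits cysteine proteases, had 109 FPKM with LPA and 57.7 FPKM in the control. The CST6 bounds, 78.2 to 139 FPKM with LPA and 40.9 to 74.4 FPKM in the control, did not overlap.

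**Figure D4:**
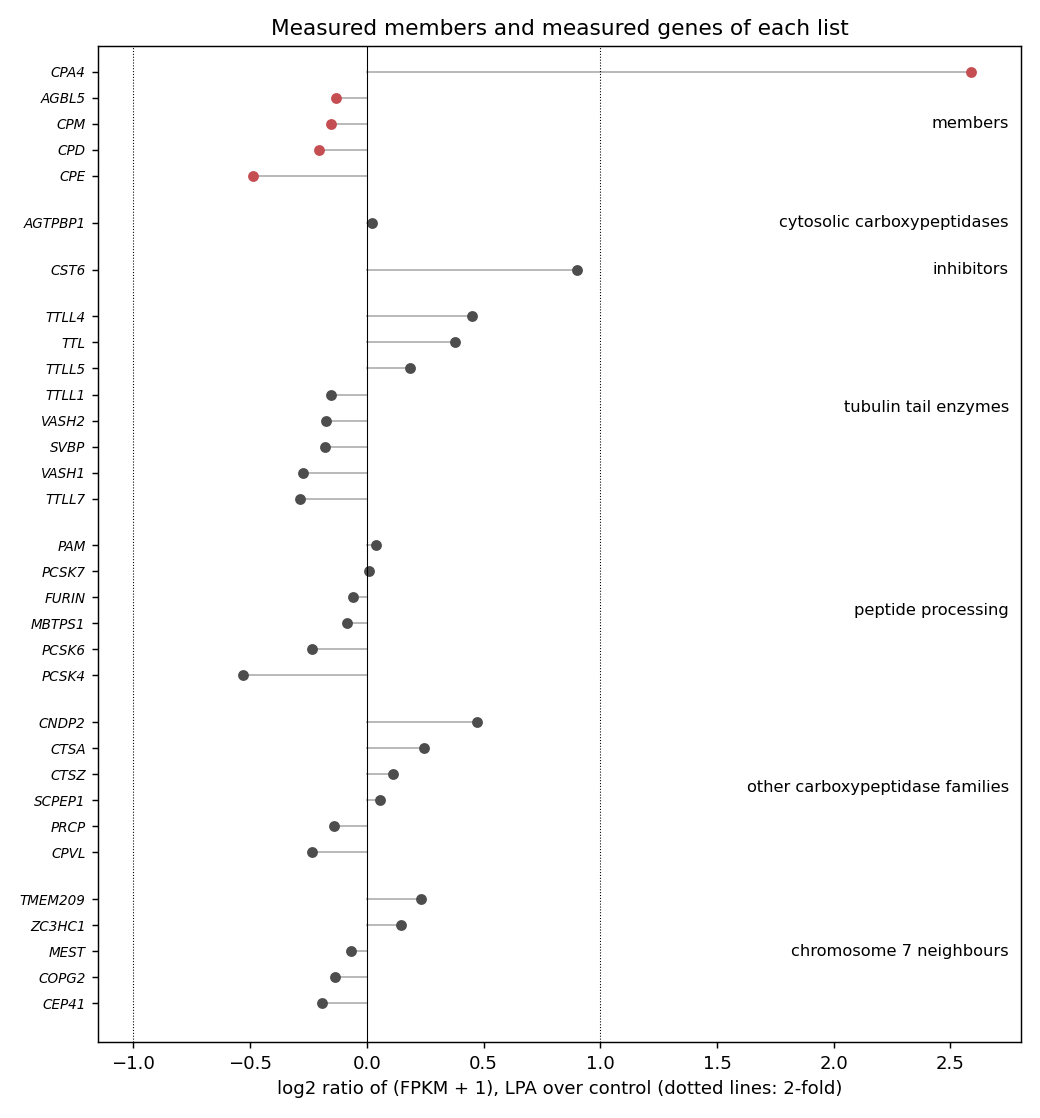
Log2 ratio, LPA over control, of the 5 measured members (red) and of the measured genes of 6 lists (grey), each row 1 gene; dotted lines mark 2-fold. CPA4 at 2.59 is the only point beyond 1, and CST6 at 0.90 is the next highest.

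The 4 measured genes with a leading isoform of at least 300 nt whose log2 ratio was nearest to that of CPA4 were KRT81, FLJ23867, SPRR2D and CDRT4, a likeness over only 2 libraries. By log2 ratio CPA4 ranked 1 among the 11633 measured genes with such a leading isoform, so all 4 lie below it. Among all measured genes it ranked 12, and those above it have shorter leading isoforms. KRT81, a hair keratin gene, had 5.79 FPKM with LPA and 0.338 FPKM in the control, a log2 ratio 0.24 away from that of CPA4. SPRR2D, a gene of the cornified envelope, had 6.51 FPKM with LPA and 0.960 FPKM in the control and differed by 0.65, and its near-identical SPRR2 relatives can share reads. CDRT4 had 4.196 FPKM with LPA and 0.363 FPKM in the control and shares a locus with TVP23C and their read-through transcript. FLJ23867 had 3.55 FPKM with LPA and was listed at 0 in the control, and shares a locus with QSOX1.

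As to the cells, the 6 epithelial markers were all measured, 5 above and 1 below 0, with a median log2 ratio of 0.22. Of all measured genes 50.2% were above 0 and 49.8% below. EPCAM had 223 FPKM in the LPA library and 220.4 FPKM in the control library, and CDH1 had 11.4 FPKM with LPA and 10.4 FPKM in the control. The keratin gene KRT18 stood highest in log2 ratio (0.74), with 741 FPKM with LPA and 442 FPKM in the control. KRT19 (0.36) and KRT8 (0.32) were also higher. The bounds of KRT18 NM_000224 were wide, 248 to 1139 FPKM with LPA and 123 to 723 FPKM in the control. They overlapped, as did those of every other isoform of the 6 markers. CLDN4 had 159.9 FPKM with LPA and 209.7 FPKM in the control (log2 ratio -0.39). The part of these differences in that of CPA4 was not tested. Of the colon markers CDX2 had 10.5 FPKM with LPA and 9.41 FPKM in the control while CDX1, VIL1 and LGR5 were listed at 0 in both. Of the fibroblast markers COL1A1 (4.28 FPKM with LPA and 5.75 FPKM in the control) and of the immune markers CD68 (2.85 FPKM with LPA and 2.64 FPKM in the control) alone were measured. The lowest FPKM give an estimate of about 15800000 fragments for the LPA library and 16800000 for the control library. How the libraries were scaled is not given, so these numbers need not equal the sequencing depth.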

How the data were processed

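Poly-A RNA of HCT-116 cells was sequenced as 1 LPA library and 1 control library, assigned by sample title. Per the labels' protocols, libraries were made with the TruSeq V2 kit. Per the submitters' processing notes, bcl2fastq 2.16.0.10, TopHat2 2.0.12, Cufflinks and Cuffdiff 2.2.0 were used with hg38; no source used here gives their settings or how the libraries were scaled. Values are FPKM with lower and upper bounds per isoform, deposited by the authors, per the file headers. Isoform length in nt is another deposited column.

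From these, FPKM were summed per symbol and log2((LPA + 1)/(control + 1)) was taken with Python 3.11.15, pandas 2.3.3 and numpy 2.4.6. In the LPA library 16 isoforms have status HIDATA and were treated as missing. Another 11 have status FAIL and were kept as listed in the gene sums under all settings, so they can enter the all-gene shares. No isoform of the 6 genes was among either kind. The worth of 1 fragment was the median of FPKM times length in kb below 0.09, among 215 (LPA) and 208 (control) lone isoforms over 2000 nt. It gives fragment numbers only approximately. The rule for named genes takes the 6 members, the measured genes of each list, all neighbours of CPA4 above 0, and the 4 genes nearest in log2 ratio. List genes named below the measured level or at 0, and genes that share a locus with a named gene, fall outside it and were chosen after their values were seen. Members and lists were chosen with earlier results of these data known. The ratio step was tested on simulated data. Alternatives were other pseudocounts, filters, fold limits and isoform choices. Protein sequences were not used here, and some listed genes are not reported here and were left out of the list counts.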

Additional observations from a re-analysis of the deposited data

How the results depend on the processing

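No paired analysis was possible because each group has 1 library and the titles share only the number 3. For the same reason no library could be left out. Of 126 recomputed values, 102 stayed within a set limit, though some settings could not change a value. For a gene the limit was the counting error of its plain log2 ratio (the distance from the middle to the end of its interval, and 0.2 for LXN, which has none). It was 1.5 times for a count and 0.2 for a list's median. Among log2 values of at least 1 in size, which is CPA4 alone, no sign turned. Below that size the sign turned for CPM and for the tubulin list median, as given below. It also turned for the median of the chromosome 7 neighbours (0.11 with the leading isoform, beside -0.07) and of peptide processing (0.01 with no filter, beside -0.07). The log2 ratio of CPA4 was 3.23 with a pseudocount of 0.1 and 1.49 with 5, and it stayed above 1 under all 7 alternatives. Some of these, which drop isoforms by length or splice class or keep those of status HIDATA, could not change it. No CPA4 isoform is of those kinds. The log2 ratio of LXN was 1.91 with a pseudocount of 0.1 and 0.077 with 5, beside 0.35. With the leading isoform standing for the gene, the log2 ratio was -0.43 for CPD and 0.27 for CPM. Over all genes, the count of 41 at least 2-fold higher became 64 with a pseudocount of 0.1, 19 with 5, 122 with the leading isoform, 24 without isoforms under 300 nt, 21 at a mean of at least 5 FPKM and 169 at a 1.5-fold limit. The count of 24 lower became 57 with a pseudocount of 0.1, 124 with the leading isoform, 7 without short isoforms, 15 at a mean of at least 5 FPKM and 180 at 1.5-fold. Separate bounds held for 2 member isoforms in all and for 1 at a mean of at least 1 FPKM. Genes of the lists past the fold limit numbered 0, but 1 with the leading isoform and 1 at 1.5-fold. The cytosolic carboxypeptidase list, which is AGTPBP1 alone, had a log2 ratio of 1.78 with the leading isoform and 0.72 without isoforms of class code j (a splice pattern unlike the RefSeq transcript), beside 0.02. The inhibitor median was 0.52 with no filter, when RARRES1 enters, beside 0.90, and the tubulin list median 0.10 at a mean of at least 5 FPKM, beside -0.16; fewer or more genes enter there. For the other changes the cause was not tested. Depth limits LXN, at about 5 fragments with LPA and 0 in the control, and the shorter CPA4 isoform, at about 2 with LPA and 0 in the control.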

Other observations

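AGTPBP1, a relative of AGBL5, and VASH2, another gene of the tubulin tail, had isoforms with opposite differences between the libraries; both were chosen after their values were seen. AGTPBP1, which encodes the cytosolic carboxypeptidase CCP1, shortens tubulin glutamate chains. Its isoform NM_001286717 had 2.48 FPKM in the LPA library (bounds 1.61 to 3.35), against 0.00992 FPKM in the control library (bounds 0 to 0.0695). A class code j isoform near NM_015239 had 8.25e-05 FPKM with LPA and 1.51 FPKM in the control (bounds 0.824 to 2.198), and NM_001286715 had 0.515 FPKM with LPA and 1.40 FPKM in the control, with overlapping bounds. Of VASH2, a tubulin detyrosinase gene, isoform NM_001136475 had 0.951 FPKM with LPA and 0.0805 FPKM in the control, while NM_024749 was listed at 0 with LPA and at 0.710 FPKM in the control. The first 2 AGTPBP1 isoforms named, of 4354 and 4539 nt, held about 171 fragments with LPA and 1 in the control, and about 0 with LPA and 115 in the control. How well fragments tell such isoforms apart was not tested. Among all isoforms above 0 FPKM with status OK, 2.89% had separate bounds and were higher, and 2.85% had separate bounds and were lower.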
